A study of Homo sapiens with 6 samples.

Results

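The integrin beta subunits are the 8 genes ITGB1 to ITGB8, chosen by name whatever their values, of the 58884 gene identifiers in the deposited table. They were followed in 6 RNA sequencing libraries of 3 human thyroid cancer cell lines, which were 8505C and BHT-101, both derived from anaplastic carcinomas, and FTC-133, derived from a follicular carcinoma. 8505C carried a CRABP2 expression vector or an empty vector, FTC-133 received siCRABP2 or siControl, and BHT-101 received siCRABP2 or siControl, with 1 library in each of these groups. The design asked how each line's RNA differs when CRABP2, a cytoplasmic carrier of retinoic acid, is raised or lowered. There are no replicates of a condition, the labels give no time after transfection, and they do not say whether the 8505C cells were a clone or a pool. Delivery (vector or siRNA) and line cannot be told apart. In GRCh38 with GENCODE release 29, ITGB3 (chr17:47253846-47311816), ITGB4 (chr17:75721328-75757818) and ITGB8 (chr7:20330702-20415754) lie on the plus strand. ITGB1 (chr10:32900319-33005792), ITGB2 (chr21:44885953-44931989), ITGB5 (chr3:124761948-124901418), ITGB6 (chr2:160099666-160200313) and ITGB7 (chr12:53191318-53207307) lie on the minus strand.

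An integrin is a receptor made of an alpha and a beta subunit, both of which cross the plasma membrane. Outside the cell the pair binds matrix proteins or other cells, and inside it the tail of the beta subunit is held by talin, kindlins and other proteins that tie it to actin. ITGB1 joins most alpha subunits and makes the common receptors for collagen, laminin and fibronectin. ITGB3, ITGB5, ITGB6 and ITGB8 pair with ITGAV, ITGB3 also with ITGA2B on platelets, and the ITGAV receptors bind vitronectin, fibronectin and, in the case of ITGB6 and ITGB8, the latent form of TGF-beta, which they help to release. ITGB4 pairs with ITGA6, binds laminin and anchors epithelial cells through hemidesmosomes, which connect to keratin filaments and not to actin. ITGB2 and ITGB7 are known mainly from leukocytes, where ITGB7 guides lymphocytes to the gut. These roles differ within epithelial tumours such as thyroid carcinoma, where several beta subunits can be made at the same time.

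The ends of the coding sequences show how the tails of ITGB1, ITGB3 and ITGB5 differ from that of ITGB8. Each line below gives the last 150 coding bases of the GENCODE release 29 transcript, 5′ to 3′, with the stop codon at the end, and capitals mark the codons of the motif NPxY (asparagine, proline, any residue, tyrosine), which talin and kindlins are known to bind.
ITGB1: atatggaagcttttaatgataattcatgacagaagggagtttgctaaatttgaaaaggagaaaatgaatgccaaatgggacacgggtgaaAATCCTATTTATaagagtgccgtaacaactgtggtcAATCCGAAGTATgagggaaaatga
ITGB3: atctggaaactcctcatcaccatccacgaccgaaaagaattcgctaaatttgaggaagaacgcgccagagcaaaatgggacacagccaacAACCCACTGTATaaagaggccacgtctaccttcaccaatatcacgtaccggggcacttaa
ITGB5: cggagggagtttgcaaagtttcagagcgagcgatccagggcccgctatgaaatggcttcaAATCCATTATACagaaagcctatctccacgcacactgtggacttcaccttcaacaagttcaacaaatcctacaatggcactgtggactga
ITGB8: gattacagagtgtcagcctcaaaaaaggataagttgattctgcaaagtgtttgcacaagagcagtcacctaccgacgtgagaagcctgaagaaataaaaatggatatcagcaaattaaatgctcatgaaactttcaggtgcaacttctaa
ITGB1 held 2 such motifs in this stretch and ITGB3, ITGB5, ITGB6 and ITGB7 held 1 each. ITGB2, ITGB4 and ITGB8 held 0 by these letters. The coding sequences of these transcripts ran to 1822 codons in ITGB4, the subunit with the long tail, and to between 769 and 799 codons in the other members, stop codon not counted.

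The sequence before the start sites also differed between members. RefSeq windows of 250 bases ahead of an annotated start (GRCh38.p14) were found for 5 members, 8 windows in all, and 3 are shown because they belong to the most abundant member, to the member that was lower with siCRABP2 in FTC-133, and to a member that was nearly silent in every library. Each is written 5′ to 3′ on the gene's strand, with CG dinucleotides in capitals.
ITGB1, chr10:32958231-32958480, minus strand: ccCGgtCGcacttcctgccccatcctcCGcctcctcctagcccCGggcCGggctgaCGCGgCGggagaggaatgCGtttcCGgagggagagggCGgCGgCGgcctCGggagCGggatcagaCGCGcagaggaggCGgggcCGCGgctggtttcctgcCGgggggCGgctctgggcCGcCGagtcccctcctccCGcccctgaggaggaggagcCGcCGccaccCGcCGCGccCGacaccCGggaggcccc
ITGB8, chr7:20330650-20330899, plus strand: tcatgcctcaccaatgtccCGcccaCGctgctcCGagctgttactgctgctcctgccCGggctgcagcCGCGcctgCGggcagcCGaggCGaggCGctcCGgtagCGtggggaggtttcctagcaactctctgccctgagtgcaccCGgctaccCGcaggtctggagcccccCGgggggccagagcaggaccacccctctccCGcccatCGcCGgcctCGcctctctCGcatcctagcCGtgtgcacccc
ITGB6, chr2:160200273-160200522, minus strand: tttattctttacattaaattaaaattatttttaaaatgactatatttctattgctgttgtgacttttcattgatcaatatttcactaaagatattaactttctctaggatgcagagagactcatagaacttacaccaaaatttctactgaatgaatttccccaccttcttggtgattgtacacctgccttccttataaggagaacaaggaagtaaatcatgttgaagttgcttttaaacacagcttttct
This ITGB1 window held 32 CG dinucleotides at 78.4% G and C, and 9.52% of the 35116 windows of all genes held as many or more. The ITGB8 window held 21 at 71.2%, as many as or more than which were found in 30.2% of windows. The ITGB6 window held 0 at 30.0%, against a median of 11 and 58.0% over all windows. The ITGB7 window held 2 at 49.6%. Of the windows not shown, the second of ITGB1 held 4 at 41.6%, and the 3 of ITGB5 held 23, 19 and 9. Motifs were searched on both strands. GGGCGG, the letters of a GC box, occurred 3 times in the ITGB1 window shown, 2 times in that of ITGB8, and 3 and 2 times in 2 of the 3 ITGB5 windows, and 42.6% of all windows held it. AGGTCA, a site of nuclear receptors, was found in 0 of the 8 windows and in 12.1% of all windows. TGANTCA, the letters of an AP-1 site, was found in 0 of the 8 and in 6.57% of all. TATAAA was found 3 times in the second ITGB1 window and in 10.7% of all windows. A match is a description of letters in this window and draws nothing about a factor.

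Values are FPKM, counts scaled for exon length and library depth, so levels can be set side by side between genes. Depth, recovered from the steps of the values, ran between 22084110 and 27958622 reads per library. CRABP2 itself stood at 38.0 FPKM in 8505C with the vector, against 0.607 FPKM with the empty vector. It stood at 0.170 FPKM in FTC-133 with siCRABP2, against 8.94 FPKM with siControl, and at 11.4 FPKM in BHT-101 with siCRABP2, against 27.3 FPKM with siControl. All 3 pairs of libraries thus followed their labels, and the BHT-101 library with siCRABP2 still held more CRABP2 than the FTC-133 library with siControl. Of thyroid markers, TG was below 0.05 FPKM in every library, NKX2-1 was between 12.4 and 22.6 FPKM in 8505C and FTC-133 and at 0 in BHT-101, and PAX8 was above 1 FPKM in FTC-133 and in no other line. Bulk RNA cannot tell fewer cells from less RNA per cell.

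ITGB1 was the leading beta subunit in all 6 libraries and ITGB5 the next in 4 of them. Together they held most of the family's RNA, which summed to 437 FPKM in 8505C with the vector and 496 FPKM with the empty vector, while in FTC-133 it summed to 248 FPKM with siCRABP2 and 262 FPKM with siControl, and in BHT-101 to 265 FPKM with siCRABP2 and 253 FPKM with siControl. ITGB1 stood at 386 FPKM in 8505C with the vector and at 443 FPKM with the empty vector. It stood at 164 FPKM in FTC-133 with siCRABP2 and 169.7 FPKM with siControl, and at 187 FPKM in BHT-101 with siCRABP2 and at 166 FPKM with siControl. The 2 libraries of 8505C were above all 4 others. ITGB1 made up 88.3% and 89.2% of the summed beta FPKM in 8505C with the vector and the empty vector, and between 64.9% and 70.7% of it in the other 4 libraries.

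**Figure D1:**
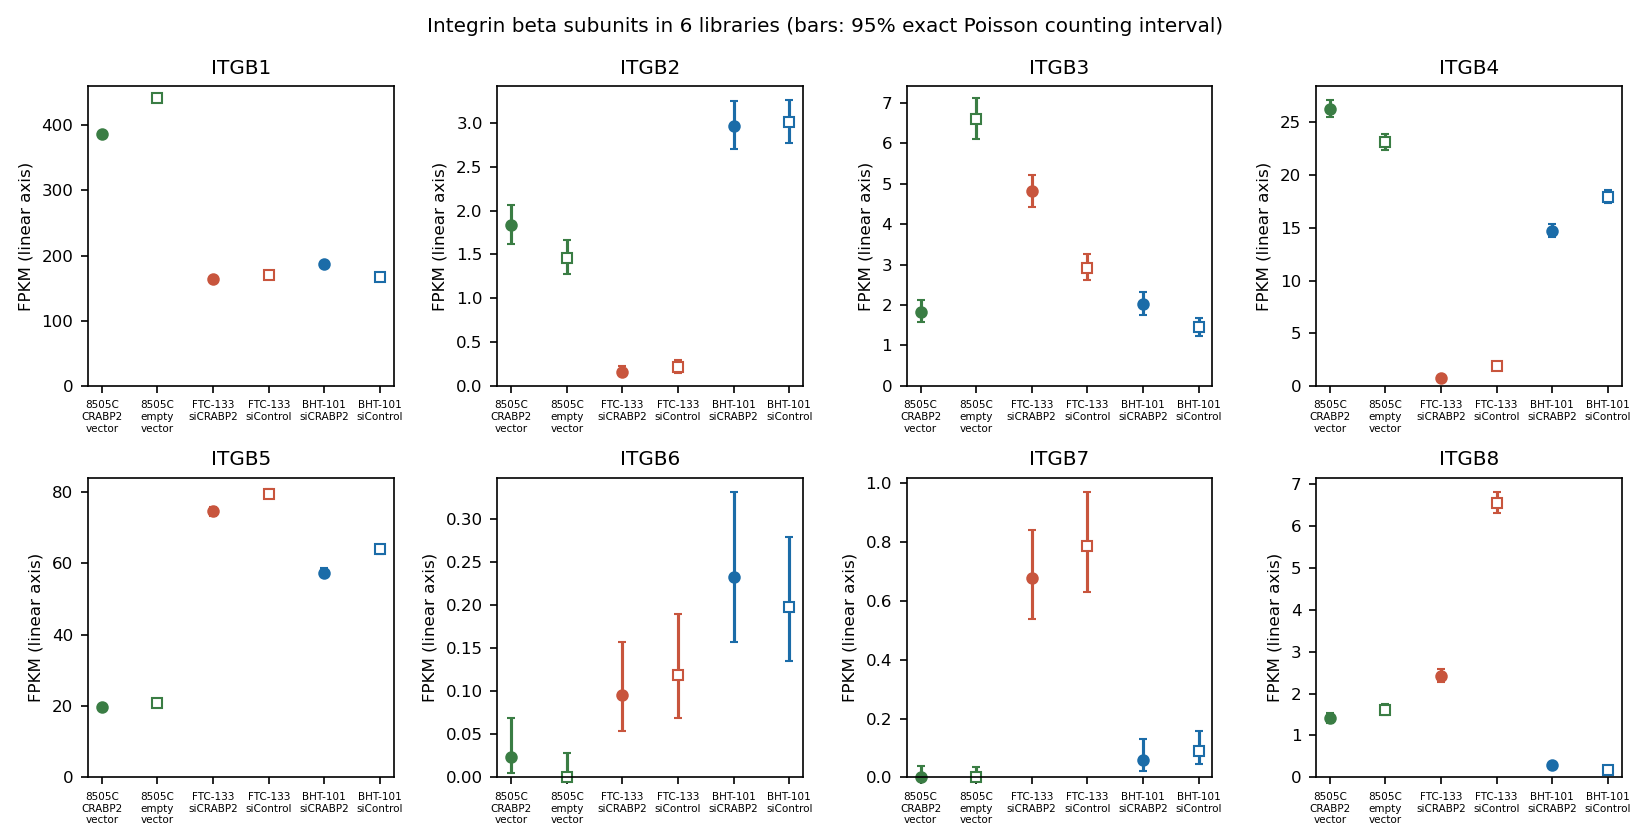
FPKM of each beta subunit in each of the 6 libraries, 1 panel per gene with its own linear axis from 0, with bars for the exact Poisson 95% counting interval and open squares for the siControl and empty vector libraries. ITGB1 lies above 160 FPKM in every library, ITGB4 falls below 2 FPKM in both FTC-133 libraries, and ITGB8 lies highest in FTC-133 with siControl.

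ITGB5, the ITGAV partner found on many epithelial and mesenchymal cells, ran the other way. It stood at 19.6 FPKM in 8505C with the vector and at 20.7 FPKM with the empty vector. In FTC-133 it stood at 74.5 FPKM with siCRABP2 and at 79.5 FPKM with siControl, and in BHT-101 at 57.4 FPKM with siCRABP2 and at 63.9 FPKM with siControl. The 2 libraries of 8505C were below all 4 others. The level of ITGB1 over that of ITGB5 was 19.7 and 21.4 in 8505C with the vector and the empty vector, 2.20 and 2.13 in FTC-133 with siCRABP2 and siControl, and 3.26 and 2.61 in BHT-101 with siCRABP2 and siControl.

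**Figure D2:**
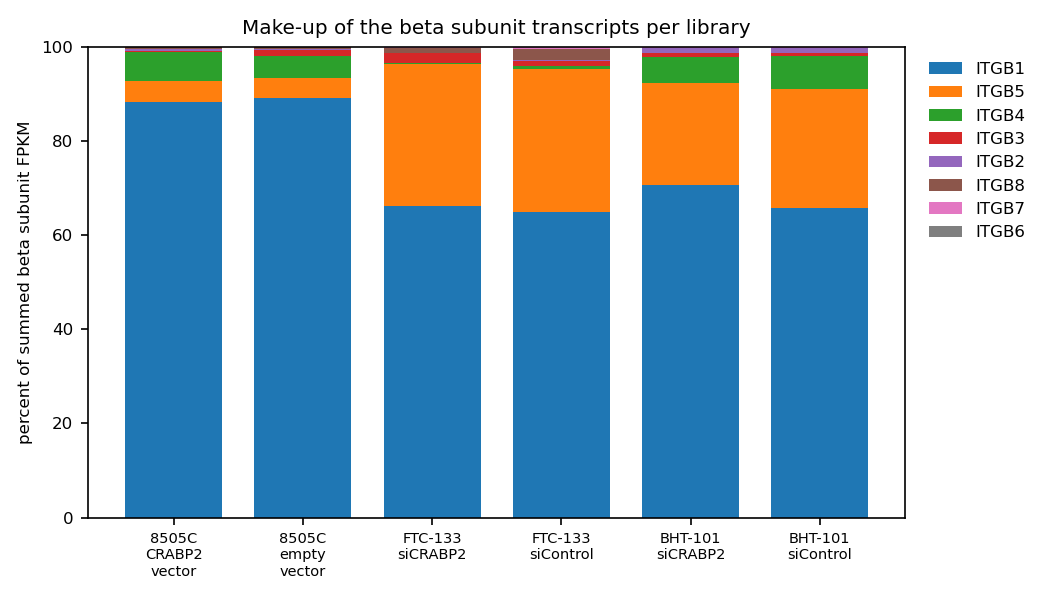
Share of the summed FPKM of the 8 beta subunits held by each gene, in percent, for each of the 6 libraries. ITGB1 holds 88.3% and 89.2% in 8505C, where ITGB5 holds 4.48% and 4.17%, while ITGB5 holds between 21.7% and 30.4% in FTC-133 and BHT-101.

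ITGB4, the hemidesmosome subunit, split the lines most among the 8 genes. It stood at 26.3 FPKM in 8505C with the vector and at 23.1 FPKM with the empty vector, at 0.734 FPKM in FTC-133 with siCRABP2 and 1.86 FPKM with siControl, and at 14.7 FPKM in BHT-101 with siCRABP2 and at 17.9 FPKM with siControl. ITGB4 was above ITGB5 in both libraries of 8505C and below it in the others. In FTC-133 it rested on 135 reads with siCRABP2 and 313 reads with siControl. The 8 epithelial markers summed to 347 FPKM in 8505C with the vector and 209 FPKM with the empty vector. They summed to between 102 and 117 FPKM in FTC-133 and to between 880.4 and 899 FPKM in BHT-101, and none was at 0. At least 1 FPKM was reached by 4 in both 8505C libraries and by 8 in both BHT-101 libraries. In FTC-133 it was reached by 6 with siCRABP2 and 5 with siControl. In 8505C KRT8, KRT18 and KRT7 were between 45.8 and 158 FPKM, while CDH1 was at most 0.0148 FPKM and EPCAM at most 0.174 FPKM. The 8 fibroblast markers summed to at most 3.72 FPKM in 8505C, to between 185 and 215 FPKM in FTC-133 and to between 78.2 and 82.2 FPKM in BHT-101. In BHT-101 LUM alone stood at 75.5 FPKM with siCRABP2 and 80.2 FPKM with siControl, and COL3A1, FAP and THY1 were at 0. The part of either list in the level of ITGB4 was not tested.

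The other ITGAV partners were low. ITGB3 stood at 1.83 FPKM in 8505C with the vector and at 6.60 FPKM with the empty vector. It stood at 4.81 FPKM in FTC-133 with siCRABP2 and 2.92 FPKM with siControl, and at 2.02 FPKM in BHT-101 with siCRABP2 and at 1.45 FPKM with siControl. The lines overlapped in ITGB3, since both libraries of FTC-133 lay between those of 8505C. ITGB8 stood at 1.41 FPKM in 8505C with the vector and at 1.62 FPKM with the empty vector, at 2.42 FPKM in FTC-133 with siCRABP2 and 6.55 FPKM with siControl, and at 0.289 FPKM in BHT-101 with siCRABP2 and at 0.175 FPKM with siControl. The lines did not overlap in ITGB8, with FTC-133 highest and BHT-101 lowest. ITGB6 was at most 0.232 FPKM in any library and had 3 reads in 8505C with the vector and 0 reads with the empty vector, where 0 reads allow up to 0.0227 FPKM (3 reads).

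The 2 leukocyte subunits were present at low levels. ITGB2 stood at 1.83 FPKM in 8505C with the vector and 1.47 FPKM with the empty vector, at 0.161 FPKM in FTC-133 with siCRABP2 and 0.211 FPKM with siControl, and at 2.96 FPKM in BHT-101 with siCRABP2 and 3.01 FPKM with siControl. ITGB7 was at most 0.787 FPKM, reached in FTC-133 with siControl, where it had 87 reads against 82 with siCRABP2. In 8505C it had 0 reads in both libraries, which allow up to 0.0305 FPKM with the vector and 0.0295 FPKM with the empty vector. The leukocyte marker PTPRC was at most 0.0241 FPKM in any library. Of the 10 leukocyte markers, 1 reached 1 FPKM in each library, which was CD14 in 8505C and BHT-101 and LCP1 in FTC-133. Their summed level ran between 13.4 and 16.7 FPKM in 8505C, between 8.63 and 14.5 in FTC-133 and between 3.56 and 4.04 in BHT-101, while ITGB2 was highest in BHT-101. Their part in the level of ITGB2 was not tested. The 10 platelet and endothelial markers, of interest for ITGB3, summed to between 1.53 and 3.68 FPKM in all libraries, and GP9 was at 0 in each. PF4 was at 0 in 8505C, where CDH5 stood at 2.46 FPKM with the vector and 1.99 FPKM with the empty vector. In FTC-133 PF4 stood at 2.37 FPKM with siCRABP2 and 1.07 FPKM with siControl, and in BHT-101 at 1.33 FPKM and 0.533 FPKM. PECAM1 reached 1.07 FPKM in BHT-101 with siCRABP2. The part of these markers in the level of ITGB3 was not tested.

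Some of these values rest on exons that other annotated genes share, and the strand setting of the counting was not given. ITGB7 shares 1886 exon bases with ZNF740 on the opposite strand, which was between 4.82 and 8.95 FPKM and highest in 8505C, where ITGB7 had 0 reads. ITGB2 shares 303 with ITGB2-AS1, at most 1.76 FPKM, and ITGB8 shares 98 with AC004130.1, at most 2.97 FPKM. ITGB3 shares 2266 exon bases on the same strand with AC068234.1, which was listed at 0 in every library, and ITGB6 shares 966 with AC092153.1. These members' levels are uncertain to that extent, and the effect was not tested.

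Lines were compared with limma on log2(FPKM + 1) over the 6 libraries, with the CRABP2 arm as a covariate. The 2 libraries of a line differ in treatment and are not replicates. With the arm as a covariate, the spread behind an adjusted p is how far the differences between arms disagreed from line to line. It does not measure a spread between replicates of a condition. The filter on FPKM left 11628 genes and 6 members, since ITGB6 and ITGB7 did not pass it. Between 8505C and BHT-101, 30.5% of genes were called higher in 8505C and 30.7% lower at a limma adjusted p under 0.05, so most genes were called and the members' calls are read against that. All 6 tested members were called there, 4 higher and 2 lower in 8505C. Between 8505C and FTC-133, where 24.2% of genes were higher and 33.7% lower, 3 members were higher and 2 lower in 8505C. Between FTC-133 and BHT-101, where 26.7% were higher and 15.2% lower, 2 members were higher and 2 lower in FTC-133. The split moved with the scaling. Of the calls between 8505C and BHT-101, 49.9% were higher and, after rescaling to TPM, 63.5%. Of those between 8505C and FTC-133, 41.8% were higher and, after quantile normalization, 52.9%. Of those between FTC-133 and BHT-101, 63.8% were higher and, with the medians of expressed genes set equal, 48.7%, and after quantile normalization 52.5%. The median gene differed by 0.17 between FTC-133 and BHT-101 and by -0.12 between 8505C and FTC-133 (log2).

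ITGB1 was higher in 8505C by 1.22 ± 0.19 than in BHT-101 and by 1.30 ± 0.19 than in FTC-133 on the log2(FPKM + 1) scale (± SE, limma adjusted p = 0.00149 and 0.00123). Its difference between FTC-133 and BHT-101, -0.08 ± 0.19, did not pass (limma adjusted p = 0.765). ITGB5 was lower in 8505C, differing by -1.54 ± 0.17 from BHT-101 and by -1.88 ± 0.17 from FTC-133 (limma adjusted p = 0.000335 and 0.000151), and between FTC-133 and BHT-101 it differed by 0.34 ± 0.17 (limma adjusted p = 0.147). So the ITGB1 and ITGB5 levels set 8505C apart from both other lines in opposite directions.

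ITGB4 was higher in 8505C by 3.52 ± 0.19 than in FTC-133 (limma adjusted p = 2.72e-05) and lower in FTC-133, at -2.95 ± 0.19 relative to BHT-101 (limma adjusted p = 7.91e-05). Between 8505C and BHT-101 it differed by 0.57 ± 0.19 (limma adjusted p = 0.0362) and passed under some alternatives only, with a range of 0.012 to 0.112. ITGB8 was higher in FTC-133 by 2.05 ± 0.32 than in BHT-101 (limma adjusted p = 0.0029). It was higher in 8505C by 1.03 ± 0.32 than in BHT-101 (limma adjusted p = 0.0276, with a range over the alternatives of 0.0061 to 0.160) and lower in 8505C, at -1.02 ± 0.32 relative to FTC-133 (limma adjusted p = 0.0301, with a range of 0.0292 to 0.158). ITGB2 was lower in FTC-133, at -1.75 ± 0.18 relative to BHT-101, and higher in 8505C by 1.16 ± 0.18 than in FTC-133 (limma adjusted p = 0.000468 and 0.00145). Between 8505C and BHT-101 it was at -0.59 ± 0.18 (limma adjusted p = 0.0233, with a range of 0.013 to 0.174). ITGB3 was close to the threshold in the contrasts with BHT-101, at 0.77 ± 0.28 in 8505C and 0.81 ± 0.28 in FTC-133 (limma adjusted p = 0.0435 and 0.0499, with ranges of 0.0161 to 0.187 and 0.0325 to 0.180), and differed by -0.04 ± 0.28 between 8505C and FTC-133 (limma adjusted p = 0.907).

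Within a line, differences of log2(FPKM + 1) were read by size alone, with a call at 1 or more in either direction, over genes at 1 FPKM or more in 1 or both libraries. Read ratios are scaled to depth, and their 95% intervals are exact binomial and cover counting error only. In 8505C, 1.85% of 11731 measured genes were called higher and 1.86% lower with the vector. Of 6 measured members 0 were higher and 1, ITGB3, was lower, at 1.83 FPKM with the vector against 6.60 FPKM with the empty vector, which is -1.42 on the log2 scale. Its 178 reads with the vector against 663 with the empty vector give a read ratio of 0.278 (0.234 to 0.328). Of all measured genes, 1.03% stood as far from 0 in either direction. ITGB1 was at -0.20 (read ratio 0.873, 0.863 to 0.883), ITGB2 at 0.20 (1.25, 1.05 to 1.50), ITGB4 at 0.18 (1.14, 1.09 to 1.19), ITGB5 at -0.07 (0.947, 0.900 to 0.997) and ITGB8 at -0.12 (0.872, 0.770 to 0.987). The median of the measured members was -0.10, against 0.02 over all measured genes.

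In FTC-133, 2.36% of 12832 measured genes were called higher and 2.35% lower with siCRABP2. Of 5 measured members, 0 were higher and 1, ITGB8, was lower, at 2.42 FPKM with siCRABP2 against 6.55 FPKM with siControl, which is -1.14. Its 999 reads with siCRABP2 against 2466 reads with siControl give a read ratio of 0.370 (0.343 to 0.398), and 3.05% of measured genes stood as far from 0. ITGB4, at 0.734 FPKM with siCRABP2 and 1.86 FPKM with siControl, had a read ratio of similar size, 0.394 (0.319 to 0.483), but -0.72 on the log2(FPKM + 1) scale, since the pseudocount of 1 FPKM shrinks low genes. ITGB3 was at 0.57 (read ratio 1.65, 1.43 to 1.89). ITGB1 was at -0.05 (0.968, 0.951 to 0.984) and ITGB5 at -0.09 (0.937, 0.915 to 0.961). The median of the measured members was -0.09, against -0.04 over all measured genes.

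In BHT-101, where siCRABP2 left more CRABP2, 0.589% of 12055 measured genes were called higher and 0.539% lower. Of 5 measured members 0 were called in either direction. ITGB3 was at 0.30 (read ratio 1.39, 1.13 to 1.71), ITGB4 at -0.27 (0.820, 0.776 to 0.865), ITGB1 at 0.17 (1.12, 1.11 to 1.14), ITGB5 at -0.15 (0.898, 0.873 to 0.924) and ITGB2 at -0.02 (0.985, 0.869 to 1.12). ITGB8 was below the filter, with 98 reads with siCRABP2 against 74 reads with siControl (1.66, 1.21 to 2.27), while in FTC-133 its ratio lay below 1. The median of the measured members was -0.02, against 0.01 over all measured genes.

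**Figure D3:**
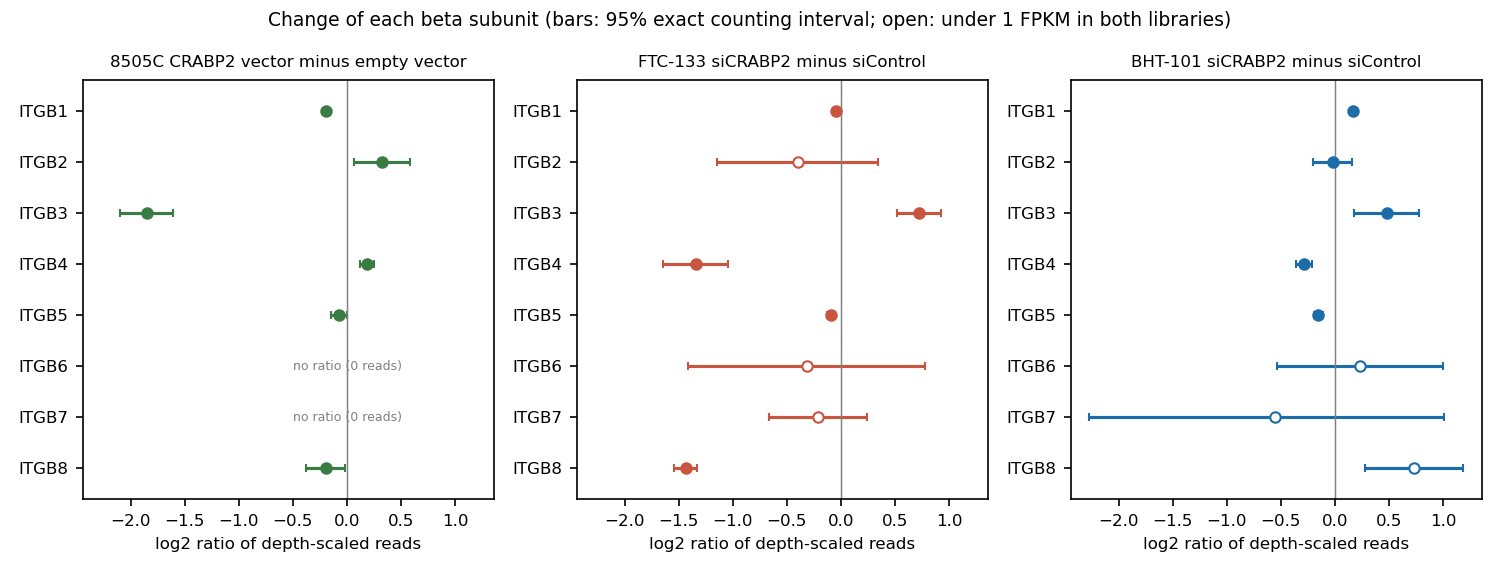
Log2 of the depth-scaled read ratio of each beta subunit, 1 panel per line, with exact 95% counting intervals and open circles for genes under 1 FPKM in both libraries. ITGB3 lies left of 0 in 8505C (a ratio of 0.278) and right of 0 in FTC-133 (1.65) and BHT-101 (1.39), and ITGB8 lies left of 0 in FTC-133 (0.370).

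**Figure D4:**
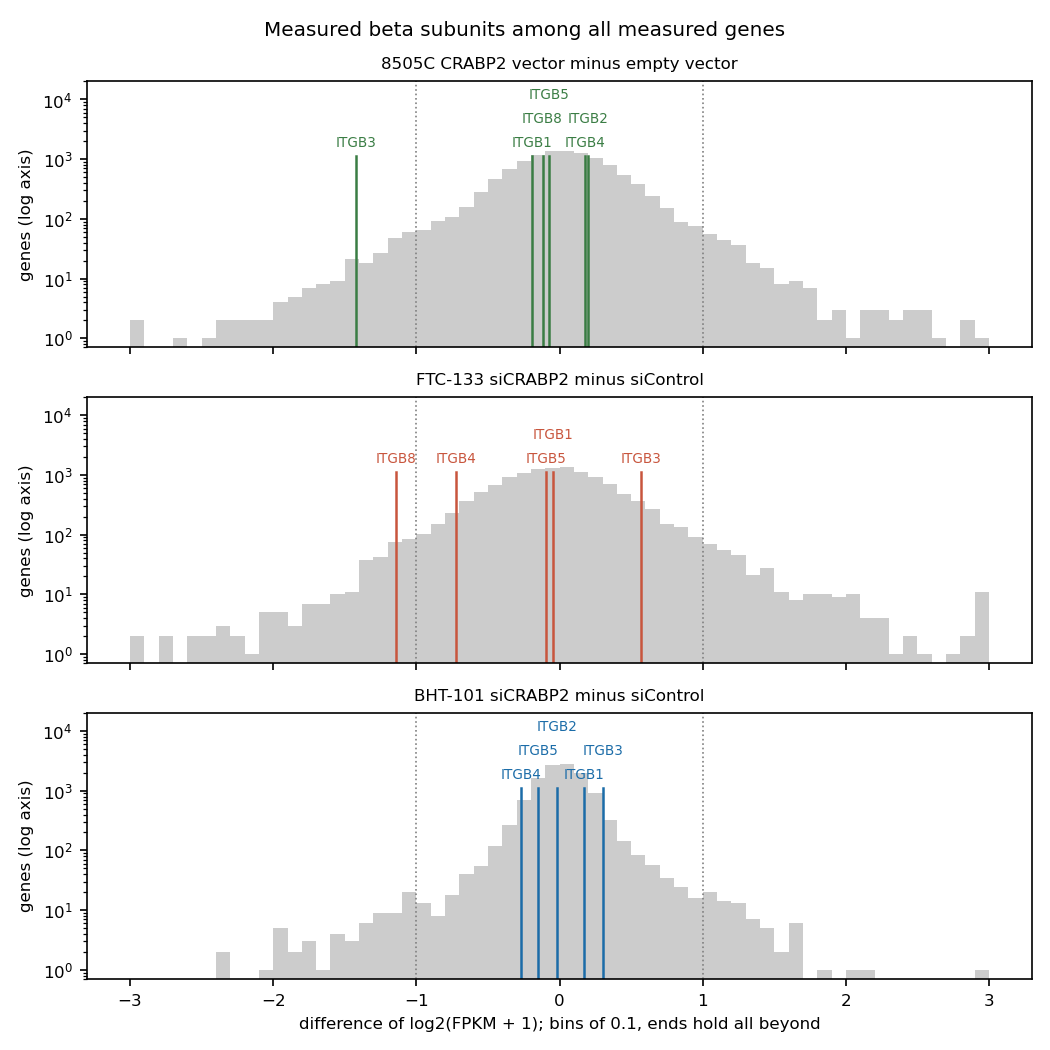
Number of measured genes on a log axis in bins of 0.1 of the difference of log2(FPKM + 1), 1 panel per line, with the measured beta subunits marked by lines and dotted lines at the size that makes a call. ITGB3 in 8505C (-1.42) and ITGB8 in FTC-133 (-1.14) stand past 1, and the other members lie within it.

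ITGB3 was higher in the library with less CRABP2 in 3 of 3 lines, namely with the empty vector in 8505C and with siCRABP2 in FTC-133 and BHT-101. ITGB4 was lower in the library with less CRABP2 in 3 of 3 lines. Of 9699 genes measured in all 3 lines, 10.9% were higher and 11.7% lower in the library with less CRABP2 in all 3, and 4 members were measured in all 3 lines. In limma over the 4 siRNA libraries, 0 of 12953 genes passed a limma adjusted p of 0.05, while 314 were higher and 225 lower at an unadjusted p under 0.05, which is 2.42% and 1.74%. Of the 6 members tested 0 were called. ITGB3 was at 0.43 ± 0.18 and ITGB4 at -0.50 ± 0.19 (± SE, limma unadjusted p = 0.0501 and 0.0396, adjusted p = 0.869 for each, higher and lower in 2 of 2 lines). ITGB8 was at -0.50 ± 0.31 (limma adjusted p = 0.869) and lower in 1 of 2 lines. ITGB1 was at 0.06 ± 0.15, ITGB2 at -0.04 ± 0.16 and ITGB5 at -0.12 ± 0.14 (limma adjusted p = 0.951, 0.974 and 0.898).

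With all 6 libraries, as lower minus higher CRABP2, 0 of 11628 genes passed, and 193 were higher and 179 lower at an unadjusted p under 0.05, which is 1.66% and 1.54%. ITGB3 was at 0.76 ± 0.23 and ITGB4 at -0.39 ± 0.16 (± SE, limma unadjusted p = 0.0112 and 0.0426), with a limma adjusted p of 0.9995 for both. Over the alternatives the adjusted p of ITGB3 ran between 0.0976 and 0.999999, the lowest without FTC-133, where ITGB3 was at 0.86 ± 0.21. ITGB1 was at 0.11 ± 0.16, ITGB2 at -0.09 ± 0.15, ITGB5 at -0.06 ± 0.14 and ITGB8 at -0.30 ± 0.26, each with the same limma adjusted p of 0.9995. A p that misses the threshold does not show that these levels were alike.

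The alpha subunits are the partners without which no beta subunit reaches the surface, and 18 were listed. In 8505C, 11 were measured and 1 was called, ITGAV, which was lower at 13.2 FPKM with the vector against 33.1 FPKM with the empty vector, or -1.26 (read ratio 0.400, 0.381 to 0.419). In FTC-133 7 were measured and in BHT-101 9, and 0 were called in either. The median over the measured alpha subunits was -0.09 in 8505C, -0.06 in FTC-133 and 0.06 in BHT-101, against 0.02, -0.04 and 0.01 over all measured genes. ITGAV was at 22.2 FPKM in FTC-133 with siCRABP2 and 25.8 FPKM with siControl, and at 62.1 FPKM in BHT-101 with siCRABP2 and 52.5 FPKM with siControl. ITGB3 and ITGAV were thus both lower with the vector in 8505C, the pair that makes the vitronectin receptor.

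The balance of beta over alpha subunits set the lines apart for ITGB4 over ITGA6 and for ITGB1 over its alpha partners. For the ITGAV partners, both BHT-101 values lay between those of 8505C. The summed level of ITGB3, ITGB5, ITGB6 and ITGB8 over that of ITGAV was 1.73 in 8505C with the vector against 0.875 with the empty vector. It was 3.69 in FTC-133 with siCRABP2 against 3.46 with siControl, and 0.965 in BHT-101 with siCRABP2 against 1.25 with siControl. ITGB3 made up 8.02% of that beta sum in 8505C with the vector against 22.8% with the empty vector, 5.88% against 3.28% in FTC-133 with siCRABP2 and siControl, and 3.37% against 2.21% in BHT-101 with siCRABP2 and siControl. The level of ITGB4 over ITGA6, its partner, was 0.680 in 8505C with the vector and 0.760 with the empty vector, 0.0560 in FTC-133 with siCRABP2 and 0.157 with siControl, and 1.09 in BHT-101 with siCRABP2 and 1.30 with siControl. ITGA6 itself stood at 13.1 FPKM in FTC-133 with siCRABP2 and 11.9 FPKM with siControl, close to its 13.4 FPKM and 13.8 FPKM in BHT-101 with siCRABP2 and siControl, so the low ratio of FTC-133 came with low ITGB4. The level of ITGB1 over the sum of its alpha partners was 1.53 and 1.60 in 8505C with the vector and the empty vector, 0.595 and 0.684 in FTC-133 with siCRABP2 and siControl, and 0.969 and 0.851 in BHT-101 with siCRABP2 and siControl. The 12 alpha partners summed for ITGB1 include ITGAV and ITGA6, which the other ratios also use. These ratios of RNA therefore do not give the amount of any receptor pair. ITGA3, a laminin-binding partner of ITGB1, led in all 6 libraries at between 77.9 and 145 FPKM. ITGA5, the fibronectin-binding partner, stood at 100.3 FPKM in FTC-133 with siCRABP2 and 60.0 FPKM with siControl (0.73; read ratio 1.67, 1.63 to 1.71), at 35.6 FPKM in 8505C with the vector and 27.0 FPKM with the empty vector, and at 9.27 FPKM in BHT-101 with siCRABP2 and 7.88 FPKM with siControl. By value ITGA5 was thus higher with more CRABP2 in 8505C and with less CRABP2 in FTC-133 and BHT-101, and past 1 in none.

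**Figure D5:**
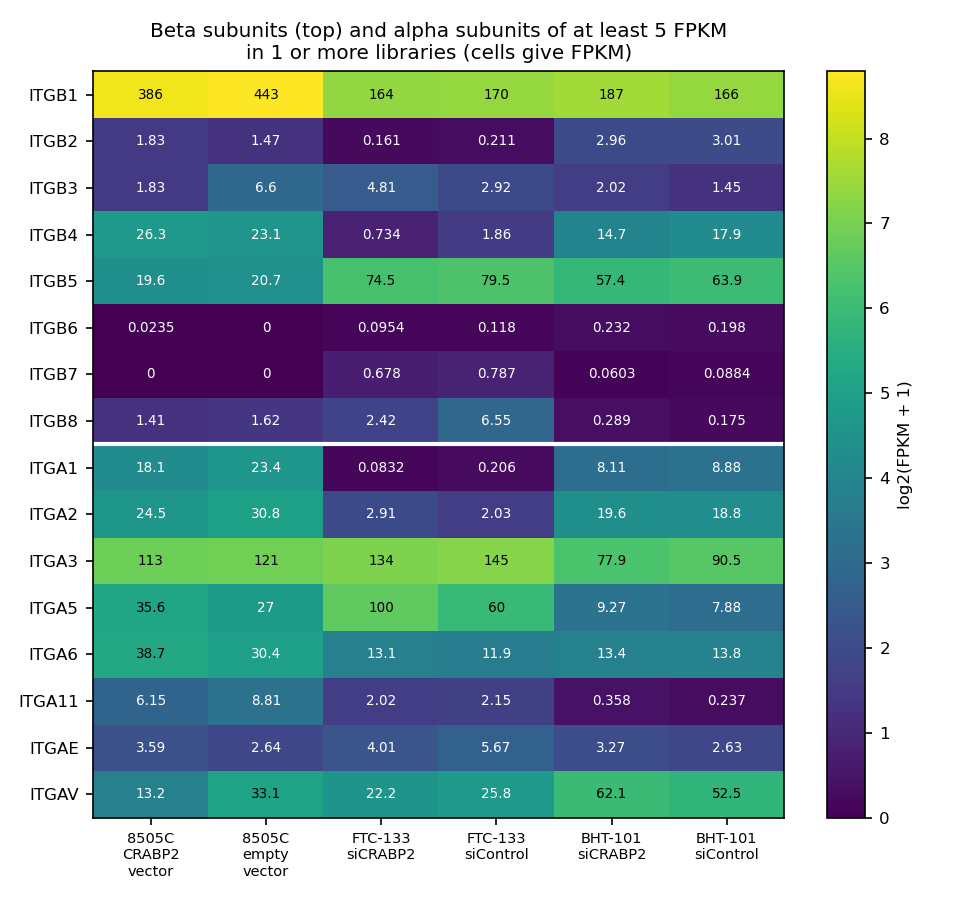
Heat map of the 6 libraries (columns) and the 8 beta subunits above the alpha subunits with at least 5 FPKM in 1 or more libraries (rows), with FPKM printed in each cell and log2(FPKM + 1) as its colour. ITGA3 is the highest alpha partner of ITGB1 in all libraries, and ITGA6 stays between 11.9 and 38.7 FPKM while ITGB4 is below 2 FPKM in FTC-133.

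The proteins that bind or regulate the beta tail, 15 listed, had 12 measured in 8505C with 1 called higher, and 13 in FTC-133 and 11 in BHT-101 with 0 called. FERMT1, a kindlin of epithelial cells, was at 8.26 FPKM in 8505C with the vector against 2.68 FPKM with the empty vector (1.33; read ratio 3.09, 2.72 to 3.51). Their medians were 0.14, -0.14 and -0.13 in 8505C, FTC-133 and BHT-101. Of the 16 adhesion complex proteins, 13, 15 and 14 were measured in 8505C, FTC-133 and BHT-101 and 0 were called. TNS3, a tensin, stood at 2.23 FPKM in 8505C with the vector against 4.53 FPKM with the empty vector (-0.78), and PARVA, a parvin, at 4.02 FPKM in FTC-133 with siCRABP2 against 6.39 FPKM with siControl (-0.56).

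Among 16 matrix ligands of integrins, 12 were measured in 8505C and in BHT-101 with 0 called, and 15 in FTC-133 with 2 called lower. TNC, tenascin C, was at 56.2 FPKM in FTC-133 with siCRABP2 against 126 FPKM with siControl (-1.15; read ratio 0.446, 0.437 to 0.455). THBS1, thrombospondin 1, had 2001 reads in FTC-133 with siCRABP2 against 6603 reads with siControl (-1.73; read ratio 0.277, 0.263 to 0.291), in the library in which ITGB8 was lower. CCN1, another matricellular ligand, was at 382 FPKM in FTC-133 with siCRABP2 against 202 FPKM with siControl (0.92). The medians were -0.26, -0.39 and -0.05 in 8505C, FTC-133 and BHT-101.

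Of 10 hemidesmosome and laminin-332 genes, 8, 7 and 8 were measured in 8505C, FTC-133 and BHT-101. KRT14, a keratin of basal epithelia, was called higher in 8505C at 11.1 FPKM with the vector against 1.67 FPKM with the empty vector (2.18). LAMB3, a chain of laminin-332, the ligand of ITGB4, was called higher in FTC-133 at 9.77 FPKM with siCRABP2 against 3.51 FPKM with siControl (1.26; read ratio 2.78, 2.48 to 3.12), where ITGB4 was lower by value. In BHT-101 0 were called, and the medians were -0.29, 0.01 and -0.16. For 9 genes of latent TGF-beta and its carriers, 7, 8 and 5 were measured and 0 were called. LTBP2, listed by its name, was at 2.41 FPKM in FTC-133 with siCRABP2 against 4.80 FPKM with siControl (-0.76; read ratio 0.503, 0.455 to 0.557). In BHT-101, where LTBP2 was below the filter, its read ratio was 0.529 (0.411 to 0.677), while that of ITGB8 was 1.66. The limma fits over 4 and 6 libraries called 0 genes of these 6 lists. At an unadjusted p under 0.05, 1 alpha subunit was higher and 2 matrix ligands and 2 latent TGF-beta genes were lower over the 4 siRNA libraries, and 1 tail regulator and 1 matrix ligand were lower over all 6.

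Over the 6 libraries, the genes whose log2(FPKM + 1) profile lay nearest to that of each member, by root mean square distance after centring, were searched among 6028 protein-coding genes. RBM39 and FAM199X lay at 0.05 from ITGB1, and MYH10 and ANXA11 at 0.09 and 0.11 from ITGB2. ECE1 and GCH1 lay at 0.24 from ITGB3, with ECE1 at 27.5 FPKM in 8505C with the vector against 58.2 FPKM with the empty vector. KLHL5 and BOK lay at 0.25 and 0.34 from ITGB4, PDAP1 and MYO19 at 0.06 from ITGB5, and SYNPO and KIF7 at 0.21 and 0.23 from ITGB8. These distances rest on 3 lines and share their libraries, and are a description.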

How the data were processed

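Values deposited by the authors are FPKM per gene, 1 column per library. Per the submitters' processing notes, the tools were FastQC, Trimmomatic 0.38 and featureCounts 2.0.0, and the build was GRCh38. The aligner, annotation release and strand setting were not given in the sources used here. The labels do not state that libraries came from separate cultures, and their pairing is by cell line. Members and lists were chosen with earlier results of these data known. Reads were recovered from FPKM multiplied by exon length (GENCODE release 29, or another length found by search for 5 members). At the release 29 length between 67.7% and 69.9% of genes above 0 came out whole, at a tolerance of 0.001 reads. Names came from a table of gene names and GENCODE 29. Within a line, differences of log2(FPKM + 1) were called at 1 or more over genes with at least 1 FPKM in 1 or both libraries. Fits used limma 3.58.1 in R 4.3.3 with a variance trend, the line as a block or the CRABP2 arm as a covariate, and Benjamini-Hochberg adjustment at 0.05, with 1 residual degree of freedom for the 4 siRNA libraries and 2 for all 6. Genes needed at least 1 FPKM in 2 of the 4 or 3 of the 6 libraries. The limma script was tested on simulated data. All 8 members are named, with CRABP2, alpha partners with at least 5 FPKM in a library, up to 3 genes per list by largest difference, and 2 genes of nearest pattern per member. Alternatives were other pseudocounts (0.1 and 5), scalings, filters, no variance trend, and leaving out a line, a block or a covariate.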

Additional observations from a re-analysis of the deposited data

Results flagged for a closer look

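ITGB1 differed in opposite directions with siCRABP2 in the 2 knockdown lines, by -0.047 in FTC-133 (164 FPKM with siCRABP2 against 169.7 FPKM with siControl) and by 0.17 in BHT-101 (187 FPKM with siCRABP2 against 166 FPKM with siControl) on the log2(FPKM + 1) scale. The difference between the lines was not tested, and each line has 1 library per group. Neither value reached 1, and 90.1% of measured genes in FTC-133 and 31.4% in BHT-101 stood as far from 0.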

How the results depend on the processing

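No called value changed sign under the alternatives. The number of members called in FTC-133 was 1, and 2 with a pseudocount of 0.1 or after rescaling to TPM (ITGB4 passes too) and 0 with a pseudocount of 5, and in 8505C it was 1 and 0 with a pseudocount of 5. Between lines, a filter of 5 FPKM left 3 members to test and gave 3 calls for 8505C against BHT-101 (6 before), 3 for 8505C against FTC-133 (5 before) and 1 for FTC-133 against BHT-101 (4 before). No filter gave 3 for 8505C against BHT-101, which were ITGB1, ITGB5 and ITGB6. The last of these had not passed the main filter. Some alternatives lost the calls of ITGB2, ITGB3, ITGB4 and ITGB8 between 8505C and BHT-101, of ITGB3 between FTC-133 and BHT-101 and of ITGB8 between 8505C and FTC-133. The calls of ITGB1 and ITGB5 passed under all. Under every alternative that tested them, the calls of ITGB2 and ITGB4 in both contrasts with FTC-133 passed too. So did that of ITGB8 between FTC-133 and BHT-101. Over all genes, calls by size with a pseudocount of 0.1 were 478 higher and 417 lower in 8505C, 561 and 717 in FTC-133 and 174 and 128 in BHT-101, against 217 and 218, 303 and 302, and 71 and 65. With a pseudocount of 5 they were 41 and 43, 87 and 40, and 11 and 3, after rescaling to TPM 411 and 378, 478 and 624, and 134 and 97, and with a filter of 5 FPKM 102 and 106, 169 and 154, and 21 and 13. Without the replicate block of the cell line limma called 0 genes in both fits, with 11 higher and 11 lower at an unadjusted p under 0.05 over the siRNA libraries and 2 and 2 over all. Leaving out FTC-133 called 12 higher and 10 lower genes, leaving out BHT-101 0 and 1, and leaving out 8505C 0 and 0, with 0 members among them. Values below about 1 FPKM rest on few reads, down to 0 to 3 for ITGB6 in 8505C. The causes were not tested.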

Other observations

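ITGB1-DT, a transcript that starts beside ITGB1 on the opposite strand and shares 42 exon bases with it, was chosen after its values were seen. It stood at 4.82 FPKM in 8505C with the vector against 1.61 FPKM with the empty vector, and at 2.13 FPKM in FTC-133 with siCRABP2 against 0.304 FPKM with siControl. In BHT-101 it stood at 7.02 FPKM with siCRABP2 against 6.84 FPKM with siControl. ITGB1 itself was at -0.20 in 8505C with the vector, and with siCRABP2 at -0.05 in FTC-133 and 0.17 in BHT-101 (log2). In FTC-133 90.1% of measured genes stood as far from 0, so ITGB1 had little direction there. By value the neighbours differed in direction in 8505C and FTC-133, and both were higher with siCRABP2 in BHT-101, where ITGB1-DT differed little. No test was made.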
